A study of Mus musculus with 13 samples.

Results

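Junctions between a fixed double-strand break in IgH, the immunoglobulin heavy chain locus of mouse chromosome 12, and any other chromosome were examined in activated splenic B and T cells. All reads whose prey was placed on a chromosome other than 12 were taken from the 3 B-cell and 3 T-cell libraries, which gave 283 of 6878 IgH junctions. B cells contributed 187 of 2531 junctions and T cells 96 of 4347. The whole series holds 16455 junctions in 13 libraries, the others being 3 libraries of B cells and 4 of fibroblasts with the break at c-myc on chromosome 15.

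Splenic B cells of genotype IgH2-28xI had been treated with anti-CD40/IL-4, and splenic T cells of the same genotype with ConcanavalinA and IL-2. The c-myc B cells, of genotype c-myc25-2xI, were activated like the IgH B cells. The SV40-transformed tail fibroblasts carried c-myc25xI;RosaI-SceI-GR and were not activated. The labels give neither the age of the animals nor whether replicates came from separate animals, so that p-values measure the spread between libraries, which may be technical. Replicates 19 and 21 of both cell types were on 1 sequencing run and replicates 23 on another, as the read names show.

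High-throughput genome-wide translocation sequencing recovers what has joined to a known break. The known side is called the bait and the unknown side the prey. I-SceI, a yeast homing endonuclease with a long recognition site, makes the bait break in a cassette. Activated B cells also break the switch regions of IgH during class switching and, less often, other transcribed genes. In mouse plasmacytomas and human Burkitt lymphomas, IgH is joined to Myc, a transcription factor gene that drives growth. A join to another chromosome yields a translocation, and broken ends can be joined with a few shared bases (microhomology), with added bases (insertion) or with neither (blunt).

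The libraries are genomic DNA, so no cell type marker could be read as expression. Junctions labelled S epsilon, S gamma 3, S gamma 2b, S gamma 2a or trans S mu, the switch regions apart from those next to the breaks, stood in for them. They made up 3.97%, 7.09% and 6.004% of the junctions of B-cell libraries 19, 21 and 23, and 0.319%, 0.0739% and 0% of those of T-cell libraries 19, 21 and 23.

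The sequences of 3 sets of prey are shown first, because the results on recurrent places, on Myc and on the letters next to the junction turn on them. Each is the mm9 reference as deposited with the read, written 5′ to 3′ from the junction outward, so that the first base is the one joined to the bait or to inserted bases. Capitals in the first set mark bases that the end of the bait shares with the prey.

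Gsdma2 (B cells 23 and T cells 19, chr11:98516941-98516980, minus strand): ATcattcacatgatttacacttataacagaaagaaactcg
Mmp24 (B cells 23, chr2:155631484-155631523, plus strand): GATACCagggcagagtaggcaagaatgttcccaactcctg
Mmp24 (T cells 19, chr2:155631432-155631471, minus strand): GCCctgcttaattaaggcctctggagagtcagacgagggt
Chromosome 6 place (B cells 19, chr6:122256218-122256257, plus strand): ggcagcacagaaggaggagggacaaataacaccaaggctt
Chromosome 6 place (T cells 21, chr6:122256220-122256259, plus strand): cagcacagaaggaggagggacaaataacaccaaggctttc

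The second set holds the prey in genes that are known to break off target during class switching, where capitals again mark bases shared with the bait.

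Myc (B cells 21, chr15:61820561-61820600, plus strand): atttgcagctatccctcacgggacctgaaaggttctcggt
Aff3 (B cells 21, chr1:38720472-38720511, plus strand): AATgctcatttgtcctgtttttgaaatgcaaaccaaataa

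In the last set capitals mark AACAGGG, 7 letters that also occur in the I-SceI recognition site. Bases shared with the bait are not marked here. They are the first 4 of Dmrt1, which reach into the motif, and 0 in Ttl and Apbb1.

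Dmrt1 (B cells 21, chr19:25594517-25594556, minus strand): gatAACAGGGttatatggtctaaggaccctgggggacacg
Ttl (B cells 23, chr2:128917519-128917558, plus strand): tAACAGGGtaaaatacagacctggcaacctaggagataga
Apbb1 (B cells 19, chr7:112727836-112727875, minus strand): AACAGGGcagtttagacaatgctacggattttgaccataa

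Other chromosomes took a larger share of bait junctions in B cells than in T cells. The share was 8.15% (76 of 933), 6.73% (75 of 1115) and 7.45% (36 of 483) in B-cell libraries 19, 21 and 23. It was 2.08% (26 of 1253), 2.29% (62 of 2707) and 2.07% (8 of 387) in T-cell libraries 19, 21 and 23. Every B-cell library lay above every T-cell library, and the means were 7.44% ± 0.710 and 2.14% ± 0.127 (SD, n = 3 each), a difference of 5.30 percentage points. The two-sided exact permutation p was 0.1, the smallest that 3 against 3 libraries allow, with an adjusted p of 0.7 over 7 B against T measures. On the run of replicates 19 and 21 the difference was 5.25 points, and on that of replicates 23 it was 5.39 points.

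What the other chromosomes were set against moved this result. No member repeated the position and strand of another in its library and none lay within 3 bp of one, whereas 1518 of 6595 chromosome 12 junctions (23.02%) repeated one. With 1 junction per position and strand the means were 9.02% ± 1.15 in B cells and 2.69% ± 0.463 in T cells (SD, n = 3 each). Of junctions outside both break windows of chromosome 12, other chromosomes held 45.0%, 34.1% and 43.4% in B-cell libraries 19, 21 and 23. They held 36.6%, 37.6% and 26.7% in T-cell libraries 19, 21 and 23. On that denominator the groups overlapped, with B cells 7.19 points higher on average (exact permutation p = 0.3).

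**Figure D1:**
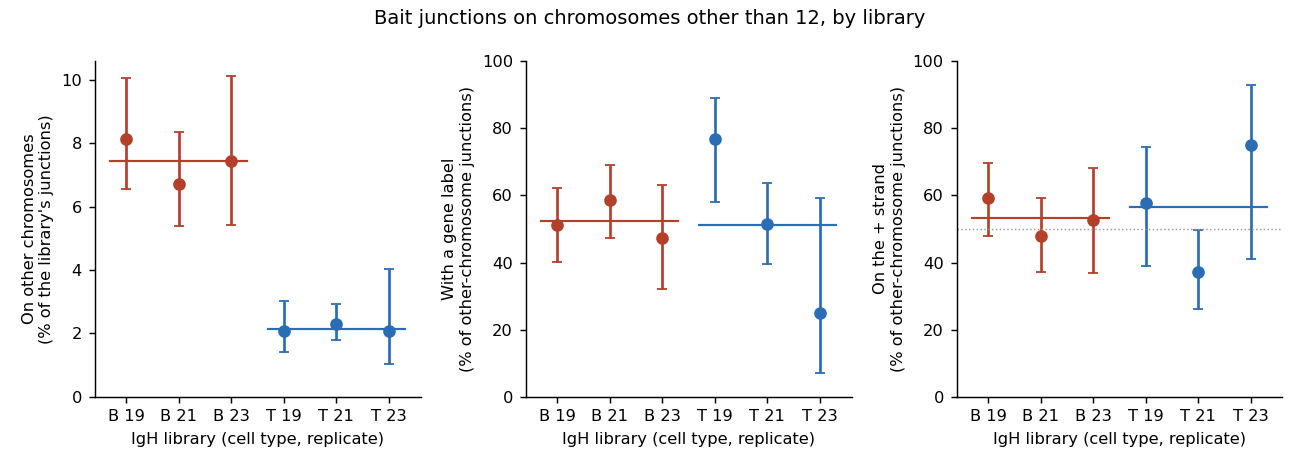
Share of IgH bait junctions on other chromosomes (left), share of these with a gene label (middle) and on the + strand (right) in each library, in percent. Points are libraries with 95% Wilson intervals for counting error, horizontal lines are group means and the dotted line is 50%. B-cell libraries lie between 6.73% and 8.15% and T-cell libraries between 2.07% and 2.29% on the left, while the groups overlap in the other panels.

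The members were spread over every chromosome other than 12 that was hit at all, 19 in number, with no junction on chromosome Y. B cells had junctions on 18 of the 19 and T cells on 19. Chromosome 6 held the most, with 18 B-cell and 13 T-cell junctions, followed by chromosome 2 with 18 and 9 and chromosome 11 with 18 and 5. With reads of the same library and start counted as 1, chromosome 6 held 24 and chromosome 2 held 27, and outside places shared by libraries they held 16 and 25, so the first rank of chromosome 6 rests on repeated places described below. Per 100 Mb of the span that junctions of all 13 libraries covered, the median chromosome held 11.3 junctions, chromosome 6 held 20.9 and chromosome 11 held 18.97. Counts and spans of the 19 chromosomes had a Pearson correlation of 0.51 and a Spearman correlation of 0.61, given as a description since the points share their libraries.

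**Figure D2:**
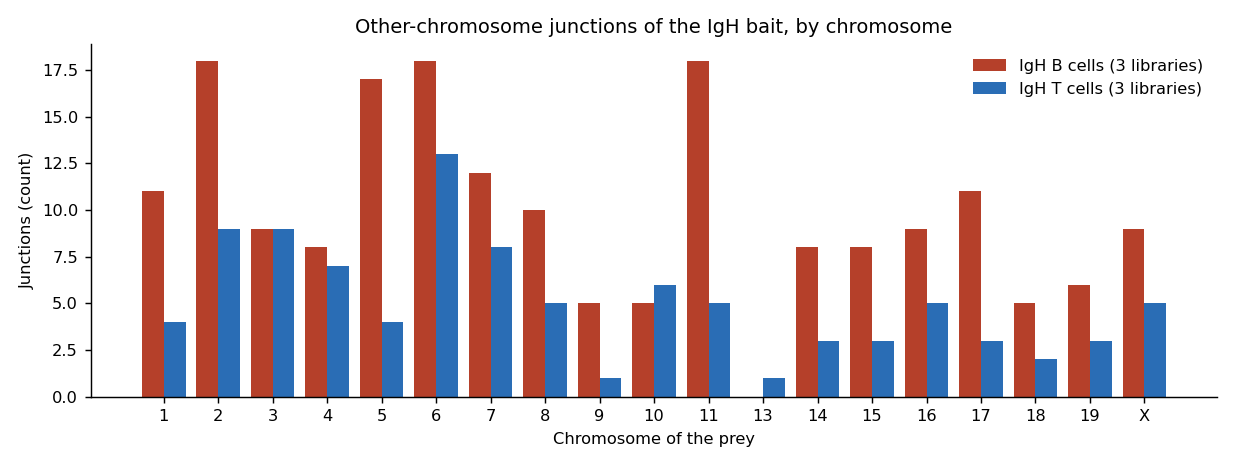
Number of other-chromosome junctions per chromosome in the 3 IgH B-cell libraries and the 3 IgH T-cell libraries, summed. The B-cell bar reaches 18 and the T-cell bar 13 on chromosome 6, and on chromosome 13 they are at 0 and 1.

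The chromosome profile did not separate B from T cells. The distance between the mean profiles, which is the share of junctions that would have to move to make them equal, was 23.9 percentage points (one-sided exact permutation p = 0.9, adjusted p = 1). B-cell and T-cell libraries did not overlap in the share of 2 of 19 chromosomes, which is 10.5% of those tested. Chromosome 5 took 7 of 76, 7 of 75 and 3 of 36 junctions in B-cell libraries 19, 21 and 23, and 1 of 26, 3 of 62 and 0 of 8 in the T-cell libraries. Its mean share was 8.96% ± 0.545 in B cells and 2.89% ± 2.56 in T cells (SD, n = 3 each). Chromosome 3 went the other way, at 4.45% ± 2.99 in B cells and 10.7% ± 2.33 in T cells (SD, n = 3 each). Exact permutation gave p = 0.1, as small as the design allows, for each of them, and the adjusted p over 19 chromosomes was 0.95.

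Chromosome 13 was nearly empty in the IgH libraries. It held 0 of 187 B-cell junctions, which allows a share of up to 1.60%, and 1 of 96 T-cell junctions, labelled Tnpo1, a nuclear import receptor gene, in replicate 21. Of junctions off chromosomes 12 and 15, it took 4.53%, 3.93% and 9.43% in c-myc B-cell libraries 14, 36 and 37. In c-myc fibroblast libraries 1 to 4 it took 3.81%, 7.56%, 7.81% and 6.40%. The highest IgH library, T cells 21, had 1.69% with a 95% Wilson interval of 0.300% to 8.996%. All 6 IgH libraries lay below all 7 c-myc libraries. The comparison was chosen after these values were seen and has no test. Whether junctions on this chromosome were removed before deposit was not tested, which limits what the near absence means.

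**Figure D3:**
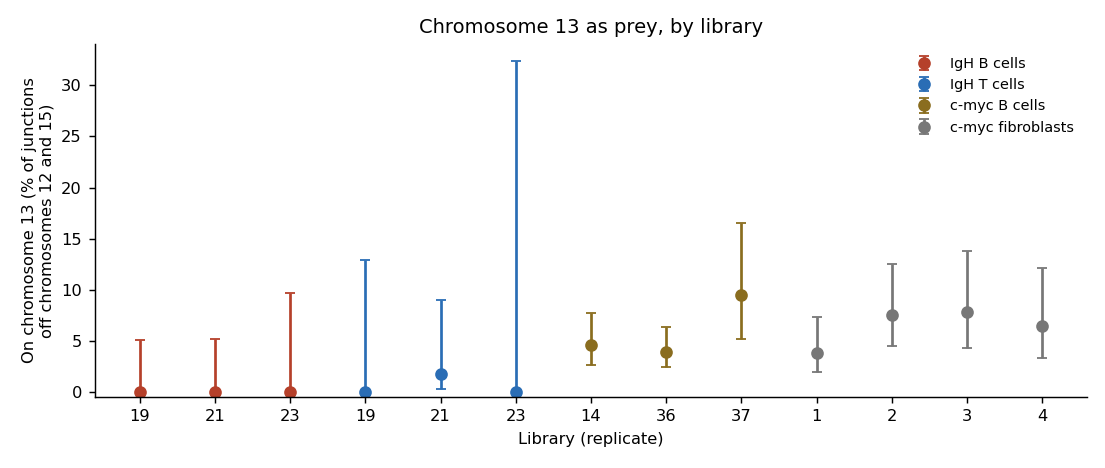
Share of junctions off chromosomes 12 and 15 that fell on chromosome 13 in each of the 13 libraries, in percent, with 95% Wilson intervals for counting error. The 6 IgH libraries lie between 0% and 1.69% and the 7 c-myc libraries between 3.81% and 9.43%, while intervals of single IgH libraries reach into the c-myc range.

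About as many members carried a gene label in B cells as in T cells, but single T-cell libraries lay far apart. A label was present on 39 of 76, 44 of 75 and 17 of 36 junctions in B-cell libraries 19, 21 and 23, and on 20 of 26, 32 of 62 and 2 of 8 in T-cell libraries 19, 21 and 23. The means were 52.4% ± 5.80 in B cells and 51.2% ± 26.0 in T cells (SD, n = 3 each), a difference of 1.22 points (exact permutation p = 1, adjusted p = 1). Without T-cell replicate 23, whose share rests on 8 junctions, the difference was -11.9 points, and without B-cell replicate 21 it was -1.91. On the run of replicates 19 and 21 it was -9.28 points and on that of replicates 23 it was 22.2 points.

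Gene labels were more frequent off chromosome 12 than on it. They stood on 25.0% to 76.9% of junctions on other chromosomes and on 6.80% to 18.2% of those on chromosome 12 outside the break windows, where switch-region and cassette labels were not counted as genes. Other chromosomes were higher in 6 of 6 libraries, by 6.82 to 65.8 points and by 40.9 on average. The exact sign-flip permutation p was 0.03125, the smallest that 6 libraries allow, with an adjusted p of 0.109 over 7 within-library measures. With break windows of 50 kb on either side the difference was 22.3 points (exact sign-flip permutation p = 0.0625).

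Strands were used about equally. Members on the + strand numbered 45 of 76, 36 of 75 and 19 of 36 in B-cell libraries 19, 21 and 23, and 15 of 26, 23 of 62 and 6 of 8 in T-cell libraries 19, 21 and 23. The means were 53.3% ± 5.63 in B cells and 56.6% ± 18.98 in T cells (SD, n = 3 each), a difference of -3.27 points (exact permutation p = 0.8, adjusted p = 1). Without T-cell replicate 23 the difference was 5.93 points, and within the runs it was 6.21 points for replicates 19 and 21 and -22.2 for replicates 23. Over the 6 libraries the share averaged 55.0% ± 12.6 (SD, n = 6), 4.96 points from an even split (exact sign-flip permutation p = 0.4375, adjusted p = 0.4375). Without T-cell library 23 this was 0.955 points and without T-cell library 21 it was 8.54. The + strand share was 10.1 points higher than on chromosome 12 outside the break windows (exact sign-flip permutation p = 0.28125), and the difference was 3.46 points without T-cell library 23 and -2.08 points with break windows of 50 kb on either side.

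The junctions of the c-myc bait in B cells, off chromosomes 12 and 15, are the most like set in the series. Gene labels were on 52.6% ± 5.26 of such junctions with the IgH bait and on 56.7% ± 6.74 with the c-myc bait in B cells (SD, n = 3 each; exact permutation p = 0.5, adjusted p = 0.9). The + strand held 52.5% ± 5.93 with the IgH bait and 52.0% ± 1.19 with the c-myc bait (SD, n = 3 each; exact permutation p = 0.9, adjusted p = 0.9). The groups overlapped in both measures. With single libraries left out, the gene-label difference of -4.08 points became -0.329 without c-myc library 37, -1.40 without IgH B-cell library 23, -6.66 without IgH B-cell library 21 and -6.85 without c-myc library 36. The + strand difference of 0.564 points lay between -2.34, without IgH B-cell library 19, and 3.59, and had no stable direction.

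The joints themselves were mostly short overlaps. In the 278 members that could be classed, 158 joined with microhomology, 83 with inserted bases and 37 bluntly. The bait could be followed for 110 bases at most, so prey starting later was called an insertion without its bait end being seen. Such members, among them Mtch1, Apbb1 and Parva, were in B-cell libraries. Microhomology was the most frequent class in every library, with 39 of 75, 42 of 74 and 21 of 36 in B-cell libraries 19, 21 and 23, and 16 of 26, 36 of 59 and 4 of 8 in T-cell libraries 19, 21 and 23. Its median length was 2 bases in B cells and 2 bases in T cells. It spanned 4 or more bases in 25 of 102 B-cell and 10 of 56 T-cell joints of this class, and the longest had 10 bases, at Ctnna3 in B-cell library 19.

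With all libraries, B and T cells did not differ in these classes beyond the spread of their libraries. Microhomology averaged 55.7% ± 3.30 in B cells and 57.5% ± 6.52 in T cells, as means over libraries (SD, n = 3 each). Insertion averaged 29.3% ± 6.22 in B cells and 25.5% ± 6.50 in T cells. Blunt joints averaged 14.97% ± 5.07 in B cells and 17.0% ± 9.31 in T cells. The exact permutation p was 0.6 for microhomology, 0.6 for insertion and 0.8 for blunt joints, with an adjusted p of 1 for each. Without T-cell library 23 the microhomology difference of B minus T cells was -5.58 points, and the libraries did not overlap (exact permutation p = 0.2). Against the break windows of chromosome 12 in the same library, insertions were less frequent on other chromosomes, at 27.4% ± 6.07 against 36.9% ± 7.90 (SD, n = 6 each). The mean difference was -9.52 points, with other chromosomes lower in 6 of 6 libraries (exact sign-flip permutation p = 0.03125, as small as 6 libraries allow, adjusted p = 0.109). With 1 junction per position and strand it was -6.29 points (exact sign-flip permutation p = 0.0625). Blunt joints were higher in 5 of 6 libraries, by 6.68 points on average (exact sign-flip permutation p = 0.09375, adjusted p = 0.219). Microhomology was 2.85 points higher on other chromosomes (exact sign-flip permutation p = 0.4375), and the median start of the prey, counted in bases from the start of the bait, differed by -5.67 bases (exact sign-flip permutation p = 0.34375). Microhomology was 0.912 points higher without B-cell library 21, 0.823 without T-cell library 21 and 5.53 without T-cell library 23. The difference in prey start was -10.7 bases without T-cell library 23 (exact sign-flip permutation p = 0.0625) and -3.50 without T-cell library 19.

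Some members held an extra piece of DNA between bait and prey. Inserts of at least 12 bases were found in 28 of 185 B-cell and 15 of 93 T-cell joints that could be classed. In 7 of the B-cell and 5 of the T-cell joints the insert held words of 12 bases that recur in inserts at the chromosome 12 breaks, where the cassettes lie. In 2 B-cell joints and 0 T-cell joints it held words of 20 bases found in chromosome 12 prey labelled as a switch region, and 0 of 93 allows up to 3.23%. One led to Acot11, an acyl-CoA thioesterase gene, in library 21, with an insert of 194 bases. A stretch of 89 bases of it, printed here as it stands in the read, matches prey labelled trans S mu, and in part S epsilon, and holds the pentamer of switch repeats, in capitals, 11 times.

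Insert before Acot11: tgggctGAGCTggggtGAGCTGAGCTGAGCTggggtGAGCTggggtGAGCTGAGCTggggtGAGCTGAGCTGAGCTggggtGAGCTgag

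The other led to Rspo4, a gene of a secreted Wnt pathway activator, in library 23, with an insert of 43 bases. Its matching stretch of 39 bases corresponds to prey labelled S gamma 1, the switch region next to the bait break.

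Insert before Rspo4: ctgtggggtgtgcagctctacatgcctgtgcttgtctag

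The 154 labelled members carried 142 different gene labels, and 131 of these labels had a single junction. No label reached more than 3 junctions, and 4 labels occurred in both B and T cells. All 142 matched a symbol or synonym of RefSeq genes on the same chromosome. Lists of genes with a known bearing on B cells, T cells or fragile sites were searched for members. The share expected from the length of the listed genes was not worked out, so the counts cannot be called few or many. Loci of light chains and T-cell receptors held 0 of 187 B-cell and 0 of 96 T-cell members, which allows up to 1.60% and 3.13%.

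Genes known as off-targets of class-switch breakage held 3 of 187 B-cell members and 0 of 96 T-cell members. A pair of them was labelled Myc and came from library 21, at deposited positions 61820560 and 61820564 on the + strand of chromosome 15. Both reads projected to the same start on the genome, so they count as 1 read start, and the nearest other chromosome 15 member lay 13.1 Mb away. The prey of the first matched the reference over all 193 bases, that of the second at 92.3% of 182, with inserts of 20 and 24 bases. The remaining one was in Aff3, a nuclear protein gene of the AF4 family, in library 21, with 3 bases of microhomology. Of the 33 genes listed, the other 31 had no member.

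Of the listed B-cell genes, Prkcb, a kinase of B-cell receptor signalling, had 1 junction in T-cell library 19. None of 37 T-cell genes was hit in B or T cells. Of 50 long genes of fragile sites and neuronal adhesion, 4 had 1 junction each in B cells and 1 had a junction in T cells, which is 2.14% of B-cell and 1.04% of T-cell members. They were the alpha-catenin genes Ctnna3 in library 19 and Ctnna2 in library 21, Csmd1, a membrane protein gene, in library 21, and the synaptic adhesion gene Cadm2 in library 23. In T cells it was Ptprd, a receptor phosphatase gene, in library 19. Counts of this size were not tested.

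Junctions within 10 kb of each other formed 17 recurrent places with 44 members. At 11 places, with 32 members, more than 1 library was present, and B and T cells shared 6 of these. A read's start was projected onto the genome by counting back from the junction over the bait. At 10 of the 17 places all junctions had the same projected start within 3 bp, including all 6 places that came from 1 library. These 6 were Myc, Akap12, a kinase scaffold gene, and Mtus1, a microtubule-associated protein gene, in B-cell library 21, Scd2, a fatty acid desaturase gene, in T-cell library 21, and places without a label on chromosomes 1 and 5 in B-cell library 21. Over all members, 270 read starts were distinct within their library.

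**Figure D4:**
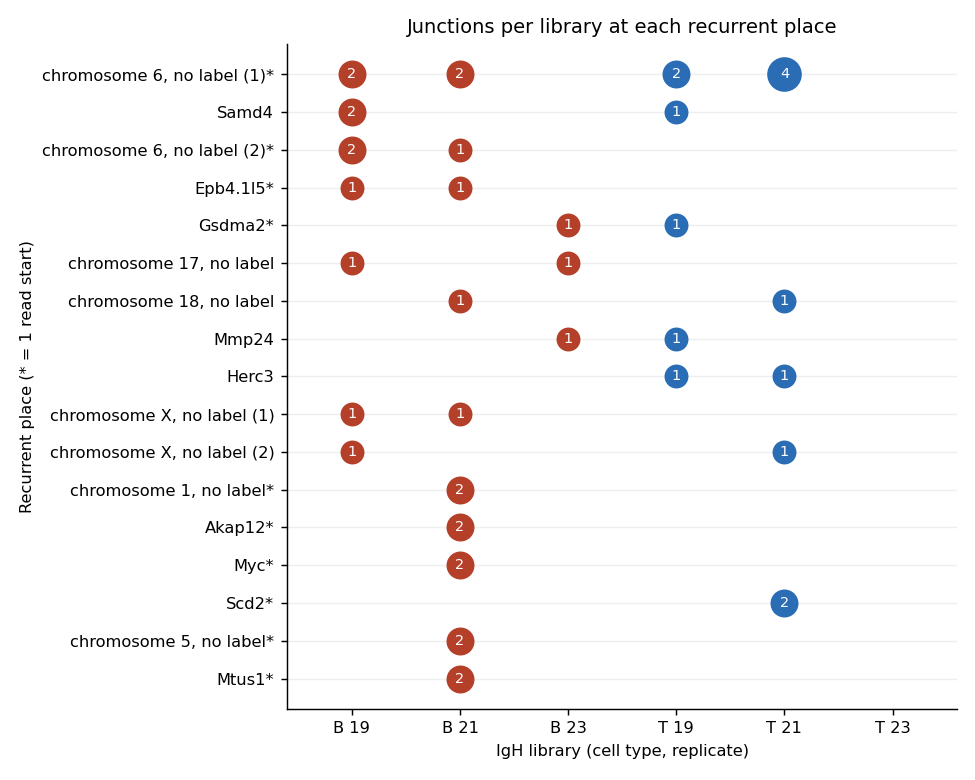
Number of junctions per IgH library at each of the 17 recurrent places, named by gene label where there is one, with circles of B-cell libraries left of those of T-cell libraries. Asterisks mark the 10 places at which all junctions project to the same read start. The top place, on chromosome 6, has 4 B-cell and 6 T-cell junctions, and T-cell library 23 has none at any place.

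The largest place lay on chromosome 6 and had no gene label. Its 10 junctions spanned 35 bp, from deposited position 122256217 to 122256252, all on the + strand. B-cell libraries 19 and 21 had 2 each, T-cell library 19 had 2 and T-cell library 21 had 4. Both libraries numbered 23, which were on the other sequencing run, had none. The place was thus seen on 1 run only. All 10 projected to 1 read start, although the prey began between 39 and 74 bases from the start of the bait. Only 22 to 39 bases of bait were read in them, with a median of 22.5, against 55 in the other 273 members. The prey matched the reference at a median of 94.3%, against 100% in the others. All 9 whose bait end could be read had an insert, and both cell types had reads of this form.

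Other reads resembled these. Words of 20 bases that the reads of the chromosome 6 place share after the bait also stood in 3 other members. They were the 2 junctions at Epb4.1l5, a gene for a protein of the membrane skeleton, in B-cell libraries 19 and 21, and 1 at Hyal5, a sperm hyaluronidase gene, in T-cell library 21. The Epb4.1l5 junctions lay at the same deposited position, 121509603 of chromosome 1, with 22 bases of bait each. A further place on chromosome 6, without a label, had 2 junctions in B-cell library 19 and 1 in library 21 within 41 bp, again with 1 projected start and 23 to 26 bases of bait. Without the places shared by 2 or more libraries, 168 B-cell and 83 T-cell members remained.

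Gsdma2, a gene of the pore-forming gasdermin family, had reads with the same junction in both cell types. B-cell library 23 and T-cell library 19 had junctions at 98516980 on the minus strand of chromosome 11. Both preys ran over the same 122 bases with no mismatch, with 63 bases of bait and 2 of microhomology. Both reads also projected to the same start, 98517041. The libraries were on different runs, and 98.6% and 99.4% of their reads carried the library's own most frequent tag. Whether the reads came from separate joining events was not tested.

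Other places held reads with different starts. Samd4, an RNA-binding translational repressor gene, had 2 junctions in B-cell library 19 and 1 in T-cell library 19 within 14 bp, with 22 to 28 bases of bait and a median identity of 94.97%. Its reads projected to starts at 47587794, 47587798 and 47587802, only just beyond the 3 bp within which starts counted as the same. Herc3, a ubiquitin ligase gene, had 1 junction in each of T-cell libraries 19 and 21, 36 bp apart. Of the 4 such places without a label, that on chromosome 17 joined B-cell libraries 19 and 23 over 1285 bp and 1 on chromosome X joined B-cell libraries 19 and 21 over 1296 bp. The other on chromosome X joined B-cell library 19 and T-cell library 21 over 665 bp, and that on chromosome 18 B-cell library 21 and T-cell library 21 over 279 bp. Each of these 4 held 1 junction on either strand. Cyth1, an exchange factor gene for ARF proteins, was hit in B-cell libraries 19 and 23 at positions 11372 bp apart. Fnbp1, a gene of membrane curvature, was hit in B-cell library 19 and T-cell library 19, 27859 bp apart. Cyth1 and Fnbp1 are thus recurrent genes but not recurrent places.

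Mmp24, a gene of a membrane-bound matrix metalloproteinase, was the place with the most c-myc junctions nearby. B-cell library 23 had a junction on the + strand and T-cell library 19 one on the minus strand, at deposited positions 12 bp apart and pointing away from each other. The bait shared 6 bases with the B-cell prey and 3 with the T-cell prey. In c-myc B cells, 6 junctions lay within 10 kb, 1 in library 14, 4 in library 36 and 1 in library 37. The nearest, in library 37, was 3 bp from the B-cell junction, and 1 in library 36 was 6 bp from the T-cell junction.

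**Figure D5:**
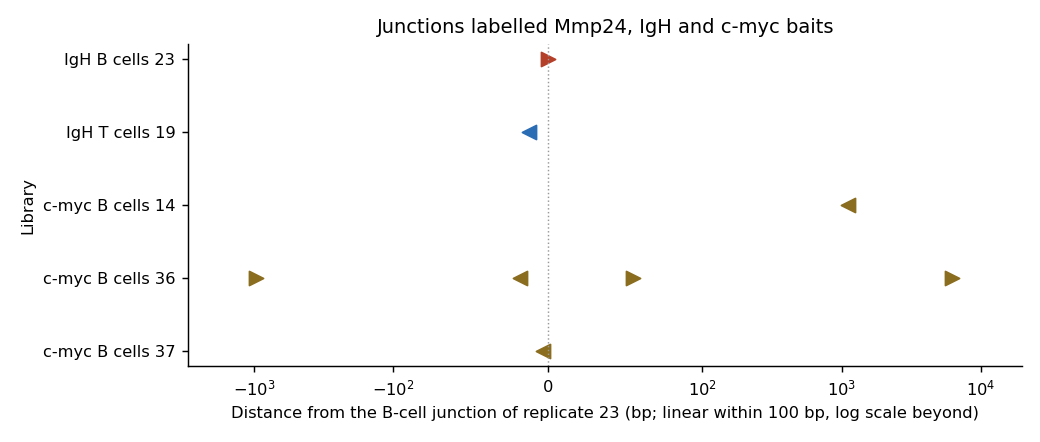
Junctions labelled Mmp24 in IgH and c-myc libraries by distance, in bp, from the junction of IgH B-cell library 23, on an axis that is linear within 100 bp and logarithmic beyond. Triangles pointing right are + strand and those pointing left minus strand. The junction of IgH T-cell library 19, that of c-myc B-cell library 37 and 1 of the 4 of c-myc B-cell library 36 lie within 20 bp of it.

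Of 272 members off chromosome 15, 13 (4.78%) lay within 10 kb of a c-myc junction. The share expected from the density of c-myc junctions was not worked out, so these counts cannot be called few or many. The 11 members on chromosome 15, which carries the c-myc bait, were left out of this comparison. One or more c-myc junctions lay within 10 kb of 8 of 179 B-cell members (4.47%) and of 5 of 93 T-cell members (5.38%), and within 100 bp of 4 and 2. Apart from Mmp24, those within 100 bp were Fermt2, the integrin activator kindlin-2, in B-cell library 23, with a c-myc junction of B-cell library 14 at 5 bp. Apbb1, whose protein binds the amyloid precursor protein, in B-cell library 19 had a c-myc junction of B-cell library 36 at 5 bp on the other strand. On chromosome X, without a label, a junction of B-cell library 19 had one of c-myc B cells 36 at 13 bp, and one of T-cell library 21 had one of c-myc fibroblasts 2 at 54 bp.

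By gene label, 18 of the 142 were also found off the cassette chromosome with the c-myc bait. Mmp24 had 6 such c-myc junctions, Aff3 and Odz2, a teneurin gene, 3 each. Apbb1, Cacna1a, a neuronal calcium channel gene, Camta1, a transcription activator gene, Fermt2, Myo3a, a myosin gene of sensory hair cells, and Ric8b, a G protein regulator gene, had 2 each. Adamts2, Arhgap15, Astn2, Cadm2, Negr1, Nek11, Prkg2 and Tmcc1 had 1 each. Of all 18 labels, 12 were in IgH B cells and 7 in IgH T cells, with Mmp24 in both.

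A few preys began with letters of the I-SceI site. The motif AACAGGG was searched on both strands in the first 12 prey bases. It stood in 3 of 183 B-cell members with so many bases in 1 alignment block, and in 0 of 94 T-cell members, which allows up to 3.19%. In bases 31 to 42 of the same preys it stood in 0 of 164 B-cell and 0 of 72 T-cell members. With the c-myc bait, off chromosomes 12 and 15, it was in the first 12 bases of 0 of 765 B-cell and 0 of 611 fibroblast preys, and in bases 31 to 42 of 0 of 648 and 1 of 563. The 3 were Dmrt1, a transcription factor gene of the testis, Ttl, the tubulin tyrosine ligase gene, and Apbb1, the preys of the last set above. They came from 3 different libraries, and Apbb1 is also the place with a c-myc junction at 5 bp. The motif was chosen after these preys had been seen, so the counts have no test, and a match is not a site of cutting.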

How the data were processed

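Genomic DNA was sonicated, and libraries were made by adapter PCR and sequenced on a MiSeq, per the labels' protocols. Each line of the deposited tables describes a single read, per the file headers, and the authors also deposited an alignment score, which was not used to filter. The build is mm9, per the submitters' processing notes. Which aligner, caller and filters made the tables is not given in the sources used here. Gene names are the deposited labels, and exons, introns and UTRs were not analysed here. RefSeq symbols of another build served to match names.

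Libraries held 387 to 2707 junctions and 8 to 76 members. Deposited positions count from 0 at the left end of an alignment, so that on the + strand the first prey base is 1 higher, and distances are between deposited positions. Break windows are the 2 highest 5 kb windows of chromosome 12 at least 20 kb apart, each reaching 10 kb to both sides of its peak. The bait was read as the consensus of the reads from a shared anchor (110 bases, each with at least 100 reads), allowing a mismatch followed by 8 matches. Prey starting before, at or after its end was called microhomology, blunt or insertion, and 5 members could not be classed. Words counted as recurring in chromosome 12 inserts stood in at least 20 of them.

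Library percentages were compared by exact permutation tests, or within libraries by exact sign-flip permutation tests, with Benjamini-Hochberg adjustment over 7, 7 and 2 measures and 19 chromosomes. With 3 libraries a group no test could pass 0.05. Wilson intervals at 95% and limits from 3 counts cover counting error only, and reads without molecular identifiers are not independent molecules. Counting 1 junction per read start, within 3 bp, was added after seeing the data. Named genes are all labels with at least 2 members, in a recurrent place, on a list or shared with the c-myc bait, apart from a few that are not reported here. Genes with printed inserts or motifs were chosen after their reads were seen. Members and lists were chosen with earlier results of these data known. Steps were tested on simulated data. Python 3.11.15 was used with numpy 2.4.6, pandas 2.3.3 and scipy 1.17.1.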

Additional observations from a re-analysis of the deposited data

Results flagged for a closer look

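The sequence of inserted bases between bait and prey, unlike the share of joints with an insert, was not part of any comparison. In all, 2 of the 185 B-cell members with a readable bait end held switch-region words in them, at Acot11 and Rspo4, against 0 of 93 in T cells. The words were searched after long inserts had been seen. The switch-region labels counted above made up 3.97% to 7.09% of all junctions in the B-cell libraries and 0% to 0.319% in the T-cell libraries. The part of switch regions in the inserts was not tested.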

How the results depend on the processing

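The higher share of other-chromosome junctions in B cells kept its direction in every alternative run, at 4.85 to 7.19 points, and the libraries overlapped with junctions outside both break windows as denominator. Leaving out a library gave 4.95 to 5.66 points for it. Differences between B and T cells with no clear direction turned when a library was left out, and ranged from -11.9 to 14.1 points for gene labels, from -13.0 to 5.93 for the + strand, from -5.58 to 0.188 for microhomology and from -7.15 to 1.96 for blunt joints. Against c-myc B cells the + strand difference ranged from -2.34 to 3.59 points. With preys of at least 50 bases the gene-label difference of B and T cells was -10.4 points. Counting each position and strand 1 time, microhomology on other chromosomes minus the break windows was -0.228 points, and with windows of 50 kb the + strand difference to chromosome 12 was -2.08 points. Leaving out a library gave 2 to 5 chromosomes without overlap, the 5 without B-cell replicate 21. Counting 1 junction per read start left 11 recurrent places of 17, while gaps of 1 kb and 100 kb gave 15 and 22. The cause of these changes was not tested. With the replicate number as a block the share difference was 5.30 points (p = 0.25 by exact sign-flip permutation, as small as 3 pairs allow). No measure could be called in this setting, so it cannot show whether blocking matters. Chromosome profiles of same-numbered B and T libraries correlated at 0.20, -0.033 and 0.092 in their deviations from the group means. Those of differently numbered libraries correlated at -0.419 to 0.525, so these values cannot show whether the numbers pair the samples. The main tests were run without pairing. T-cell library 23 has 8 members, which limits every share of that library.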
